A study of Mus musculus with 13 samples.

Results

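The transcripts described here encode the hypoxia-inducible factors (HIFs) and the enzymes that sense oxygen for them. The group held 9 genes chosen by name, of 36109 genes with a listed transcript: the alpha subunits Hif1a, Epas1 and Hif3a, their shared partner Arnt, the prolyl hydroxylases Egln1, Egln2 and Egln3, the asparagine hydroxylase Hif1an, and Vhl. All 9 passed the filter on low counts in both tissues.

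HIF alpha subunits are made continuously. When oxygen is plentiful, the EGLN enzymes hydroxylate them on prolines, the VHL protein recognises the hydroxylated form, and its ubiquitin ligase marks it for the proteasome, while the product of Hif1an (factor inhibiting HIF) hydroxylates an asparagine and keeps coactivators away. When oxygen is low, the alpha subunits persist, pair with ARNT and bind DNA at hypoxia response elements beside genes of glycolysis, vessel growth and mitophagy. This control acts on the proteins, which were not measured here. EPAS1 (HIF-2 alpha) is abundant in endothelium, and EGLN1 and EGLN3 are themselves HIF targets, as is known from other work.

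RNA sequencing covered mice with deletion of Hmox2, the constitutive heme oxygenase, kept in room air. The 4 groups were aortic endothelial cells (ECs) of Hmox2+/+ mice (n = 3, EC WT 1 to 3) and Hmox2-/- mice (n = 3, EC KO 1 to 3), and whole hearts of Hmox2+/+ mice (n = 4, heart WT 1 to 4) and Hmox2-/- mice (n = 3, heart KO 1 to 3). The methods call the Hmox2+/+ mice littermates and restrict the deletion to no cell type, so it was carried by every cell. EC RNA was what a lysis reagent released when flushed slowly through the aortic lumen, and heart RNA came from the whole frozen organ with all its cell types. The study calls the sequenced mice young, and their sex was not given in the sources used here. The submitters call their aortic and heart samples matched pairs, though no label ties a given EC library to a given heart. Each library was therefore treated as 1 independent sample, also where tissues were compared, and p-values measure the spread between these libraries.

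Levels are in CPM (counts scaled to library size, across all 13 libraries), as mean ± SD. Hmox2 was 52.2 ± 4.77 CPM in ECs of Hmox2+/+ mice and 10.03 ± 0.733 CPM in ECs of Hmox2-/- mice, and 50.9 ± 3.22 against 10.3 ± 0.860 CPM in hearts. Total estimated counts were 26067147 to 31619776 per library, except 7268626 in heart WT 1. Ddx3y, a Y-linked gene, was at 0.768 CPM in EC KO 2 and 0.676 CPM in EC KO 3 and at 46.7 to 64.3 CPM in the other EC libraries. Every heart library was at 47.2 CPM or higher, with 79.6 to 111 CPM in Hmox2+/+ hearts and 47.2 to 66.1 CPM in Hmox2-/- hearts. EC markers summed to 2512 to 5276 CPM in the EC libraries and 713 to 953 CPM in the hearts. Not every EC marker ran this way. Kdr was 13.9 CPM in ECs of Hmox2+/+ mice and 126 CPM in Hmox2+/+ hearts, and Cdh5 was 193 and 157 CPM. The EC libraries also held adipocyte markers (3062 to 4991 CPM against 17.6 to 23.1 CPM in hearts) and smooth muscle markers (2507 to 4864 CPM with Hmox2 intact and 779 to 2701 CPM without it). Cardiomyocyte markers summed to 96.5 to 359.7 CPM in ECs of Hmox2+/+ mice and to 8.25 to 10.3 CPM in ECs of Hmox2-/- mice. Of the heart counts, mitochondrially encoded transcripts took 37.6% to 44.3% with Hmox2 intact and 22.5% to 27.2% without it. In bulk RNA of this kind, fewer cells of a type and less RNA per cell cannot be told apart.

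The stretches of 250 bases before 4 transcript starts are shown because the results turn on these transcripts: Hif1a-201 and Hif1a-202 are the 2 main Hif1a transcripts and shared its counts differently between genotypes, and Egln1 and Egln3 differed most between ECs and heart. Capitals mark ACGTG and GCGTG on either strand, the core letters of a hypoxia response element, and CACGTG reads as ACGTG on both strands. The Hif1a windows were read from GRCm39 (chr12:73954320-73954569 for Hif1a-201 and chr12:73947899-73948148 for Hif1a-202, plus strand), and the other windows are RefSeq sequence on GRCm38.p6 (Egln1, chr8:124949255-124949504, and Egln3, chr12:54203875-54204124, both minus strand).
Hif1a-201: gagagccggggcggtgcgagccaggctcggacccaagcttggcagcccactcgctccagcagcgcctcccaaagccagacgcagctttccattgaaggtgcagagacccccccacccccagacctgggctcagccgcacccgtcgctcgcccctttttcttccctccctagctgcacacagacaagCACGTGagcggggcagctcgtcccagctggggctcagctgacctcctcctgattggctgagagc
Hif1a-202: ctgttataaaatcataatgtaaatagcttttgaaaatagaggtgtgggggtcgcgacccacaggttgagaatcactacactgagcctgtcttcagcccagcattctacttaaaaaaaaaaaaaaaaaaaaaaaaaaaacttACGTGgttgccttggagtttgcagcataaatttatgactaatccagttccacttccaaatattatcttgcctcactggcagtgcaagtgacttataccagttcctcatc
Egln1: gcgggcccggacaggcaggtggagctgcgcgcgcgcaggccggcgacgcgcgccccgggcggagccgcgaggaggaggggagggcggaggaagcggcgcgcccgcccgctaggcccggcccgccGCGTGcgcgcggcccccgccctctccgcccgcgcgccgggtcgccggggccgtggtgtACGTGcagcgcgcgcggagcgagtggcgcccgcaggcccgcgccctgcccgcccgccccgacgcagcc
Egln3: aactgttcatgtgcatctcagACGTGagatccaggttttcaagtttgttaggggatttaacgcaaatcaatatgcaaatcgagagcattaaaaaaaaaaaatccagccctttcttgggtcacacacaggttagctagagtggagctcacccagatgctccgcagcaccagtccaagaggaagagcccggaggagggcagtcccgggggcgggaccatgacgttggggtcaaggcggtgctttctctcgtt
ACGTG was in 16.6% and GCGTG in 28.2% of the 32851 RefSeq windows of this length, and either was in 38.6%. The Egln1 window held ACGTG 68 bases and GCGTG 126 bases before the start, and the Egln3 window held ACGTG 229 bases before it. The Vhl and Hif1an windows held neither. A match describes letters and was not tested as a binding site. Epas1 was not in the table of promoters used here.

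The first question was whether the 9 genes differed between genotypes within a tissue. A gene passed when its adjusted p, here always by Benjamini-Hochberg over all genes tested with edgeR's quasi-likelihood test, was at most 0.05. Compared to hearts of Hmox2+/+ mice, hearts of Hmox2-/- mice had lower Hif1a, Epas1, Arnt and Hif1an and higher Egln3. These 5 of the 9 genes passed, where 33.4% of the 13816 genes tested passed (17.2% higher and 16.2% lower). For 4 of them the libraries of each genotype were fully separate, as they were for 40.2% of all genes. In ECs, 2 of the 9 passed, Egln1 and Hif1an, both lower in Hmox2-/- mice, where 18.1% of 15301 genes passed (8.06% lower). The EC libraries did not overlap for 3 of the 9, against 41.2% of all genes. No gene of the 9 reached an absolute log2 fold change of 1 in either tissue, while 9.28% of all genes passed with such a change in ECs and 6.71% in hearts. The median log2 fold change of the 9 was -0.33 in ECs and -0.35 in hearts, against -0.02 and -0.01 over all genes tested.

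**Figure D1:**
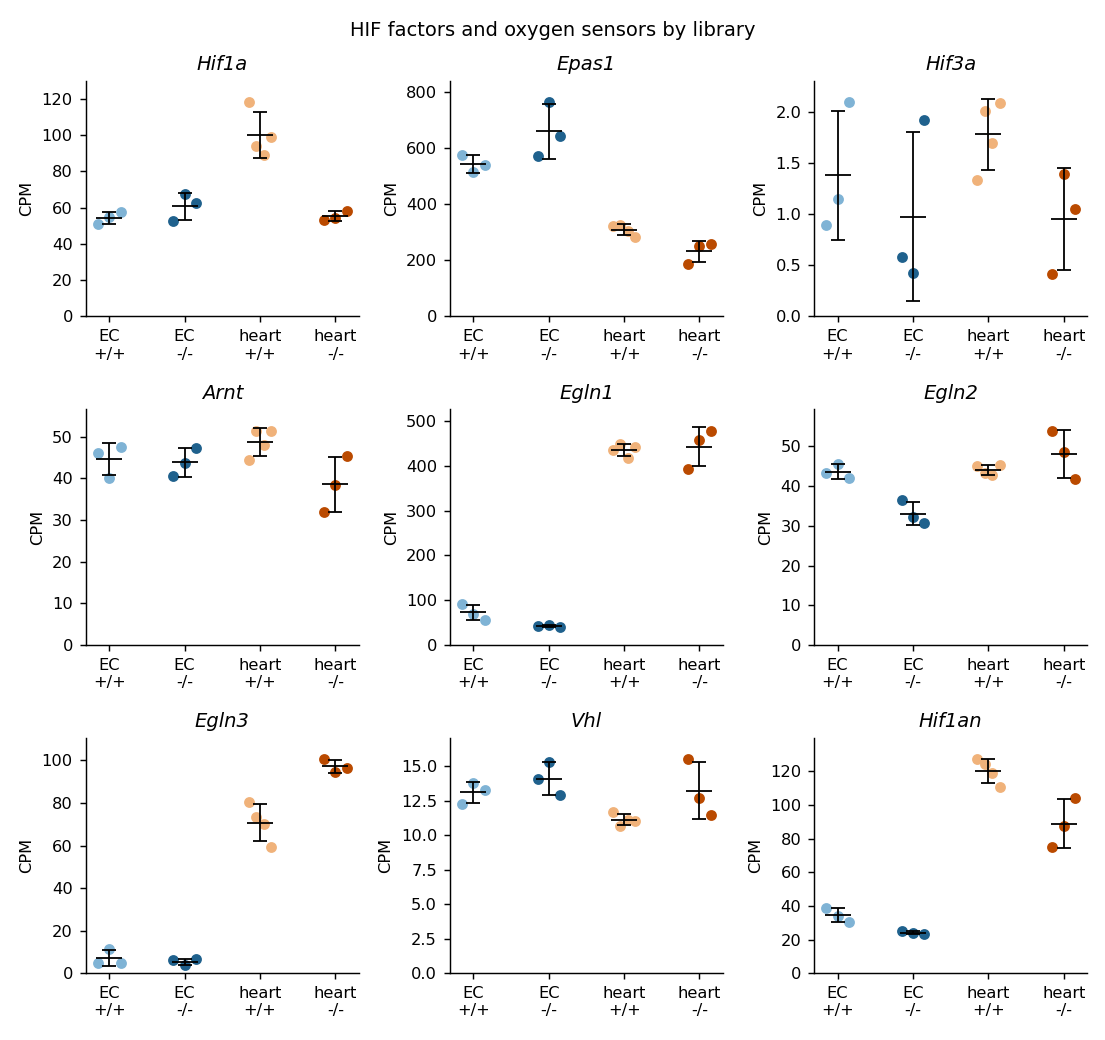
Level of each of the 9 genes in every library, in CPM on linear axes from 0. Each point is 1 library of ECs or heart of Hmox2+/+ (+/+) or Hmox2-/- (-/-) mice, and black bars give mean ± SD (n = 3, 3, 4 and 3). In hearts, Hif1a runs from 89.2 to 118 CPM in Hmox2+/+ mice and from 53.0 to 58.2 CPM in Hmox2-/- mice.

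Hif1a (chromosome 12, 73948149 to 73996321, plus strand of GRCm39) encodes HIF-1 alpha, the subunit tied most closely to glycolytic genes. In Hmox2+/+ hearts it was 118, 94.1, 89.2 and 99.2 CPM, and in Hmox2-/- hearts 53.0, 54.5 and 58.2 CPM. Every Hmox2-/- heart was below every Hmox2+/+ heart. The log2 fold change was -0.86 ± 0.11 (SE, adjusted p = 3.78e-04), or 1.81-fold lower. A two-sided exact permutation test of this gene alone, on the absolute difference of mean log2 CPM, gave p = 0.0286, the smallest that the 35 splits of 7 hearts allow. The call held without each heart library in turn. In ECs, Hif1a was 50.9, 54.6 and 57.7 CPM in Hmox2+/+ mice and 52.7, 67.4 and 62.4 CPM in Hmox2-/- mice. The EC groups overlapped, and the log2 difference of 0.20 ± 0.12 (95% interval -0.04 to 0.45) did not pass (adjusted p = 0.283). Its sign turned to -0.37 (adjusted p = 0.062) when each library's trend with transcript length and GC content was removed by an offset, and to -0.01 without EC KO 2 and EC KO 3.

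Nearly all Hif1a counts came from 2 protein-coding transcripts. Hif1a-201 and Hif1a-202 start 6421 bases apart, use separate first exons, and have their start codons in exon 1 and exon 2, and exon 11 begins 42 bases later in Hif1a-202. The kallisto estimate splits reads of the shared exons between them. Hif1a-202 took 23.3%, 23.8% and 29.5% of the Hif1a counts in ECs of Hmox2+/+ mice and 47.6%, 41.1% and 46.2% in ECs of Hmox2-/- mice. The lowest EC share in Hmox2-/- mice lay above the highest in Hmox2+/+ mice. In CPM, Hif1a-202 was 13.9 ± 2.71 in ECs of Hmox2+/+ mice and 27.2 ± 1.92 in ECs of Hmox2-/- mice, while Hif1a-201 was 40.2 ± 1.33 and 33.6 ± 6.04. In hearts, Hif1a-202 took 17.4% to 27.1% of the counts in Hmox2+/+ mice and 26.2% to 39.3% in Hmox2-/- mice, and these ranges overlapped. Hif1a-201 went from 76.4 ± 7.50 CPM in Hmox2+/+ hearts to 37.3 ± 2.48 CPM in Hmox2-/- hearts, and Hif1a-202 from 22.8 ± 6.34 to 17.4 ± 4.75 CPM. The heart difference lay mostly in the counts given to Hif1a-201. These shares are descriptions of estimated counts and were not tested.

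**Figure D2:**
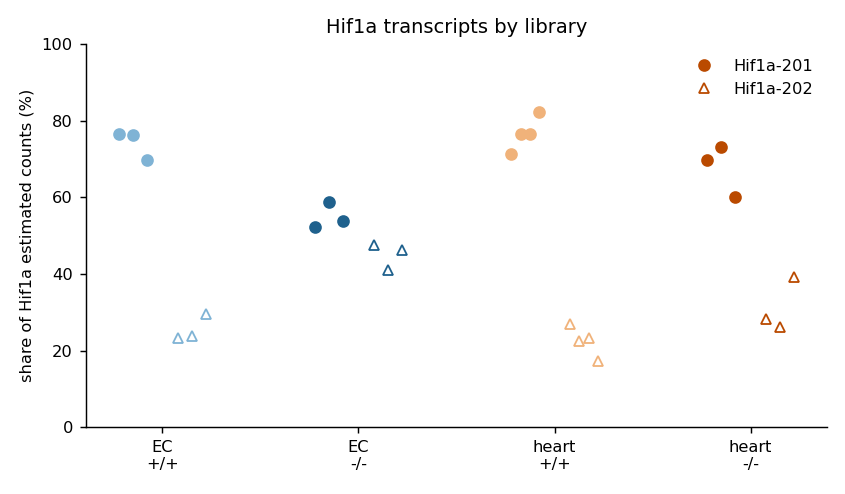
Share of Hif1a estimated counts (%) given to Hif1a-201 (filled circles) and Hif1a-202 (open triangles) in each library of the 4 groups. In ECs of Hmox2-/- mice, Hif1a-202 lies between 41.1% and 47.6%, above the 23.3% to 29.5% of ECs of Hmox2+/+ mice.

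Epas1 (chromosome 17, 87061087 to 87140838, plus strand) encodes HIF-2 alpha. It was 322, 327, 306 and 282 CPM in Hmox2+/+ hearts and 187, 251 and 257 CPM in Hmox2-/- hearts. The heart groups did not overlap, though heart KO 2 and heart KO 3 sat close to the lowest Hmox2+/+ heart. The log2 fold change was -0.42 ± 0.12 (adjusted p = 0.0199). The call was lost with the offset for length and GC content (log2 fold change -0.20, adjusted p = 0.0707), without heart WT 1 (adjusted p = 0.0532) and without heart WT 2 (adjusted p = 0.0594). In ECs, Epas1 was 575, 513 and 538 CPM in Hmox2+/+ mice and 569.8, 762 and 644 CPM in Hmox2-/- mice. EC KO 1 lay inside the Hmox2+/+ range, and the log2 difference of 0.32 ± 0.17 (95% interval -0.02 to 0.66) did not pass (adjusted p = 0.23).

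Hif3a (chromosome 7, 16764918 to 16796352, minus strand), some of whose forms inhibit the other alpha subunits, was low, at 7 to 89 estimated counts per library. It was 1.78 ± 0.346 CPM in Hmox2+/+ hearts and 0.949 ± 0.497 CPM in Hmox2-/- hearts, with a log2 difference of -0.95 ± 0.38 (adjusted p = 0.0732). The heart ranges overlapped, at 1.33 to 2.08 and 0.410 to 1.39 CPM. Without heart KO 2 the difference was -1.33 and passed (adjusted p = 0.0494). In ECs it was 1.38 ± 0.632 against 0.975 ± 0.821 CPM (adjusted p = 0.628), with a 95% interval of the log2 difference from -1.68 to 0.76.

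Arnt (chromosome 3, 95341365 to 95404551, plus strand) encodes HIF-1 beta, with which each alpha subunit must pair to bind DNA. It was 44.3, 51.3, 48.1 and 51.4 CPM in Hmox2+/+ hearts and 32.04, 38.4 and 45.3 CPM in Hmox2-/- hearts. Heart KO 3 lay inside the Hmox2+/+ range. The log2 fold change of -0.35 ± 0.12 passed narrowly (adjusted p = 0.042), and the call was lost when any 1 library other than heart KO 3 was left out and with the offset for length and GC content (-0.21, adjusted p = 0.0888). In ECs, Arnt was 44.6 ± 3.86 and 43.9 ± 3.41 CPM, with a 95% interval of the log2 difference from -0.21 to 0.25 (adjusted p = 0.93). Gm42672 overlaps Arnt on the same strand, but only 0.41% of the 31-base words of Arnt occur in any other gene.

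Egln1 (chromosome 8, 125635308 to 125676865, minus strand) encodes PHD2, the prolyl hydroxylase that does most to keep HIF-1 alpha low in normal oxygen. In ECs it was 90.8, 70.2 and 56.8 CPM in Hmox2+/+ mice and 42.0, 44.9 and 40.1 CPM in Hmox2-/- mice. The Hmox2+/+ libraries were spread widely and lay above the tight Hmox2-/- libraries, without overlap. The log2 fold change was -0.74 ± 0.17 (adjusted p = 0.0289), or 1.67-fold lower. The exact permutation test gave p = 0.1, the smallest that 3 against 3 libraries allow. Of the EC libraries left out in turn, the call was kept only without EC WT 3. It was lost without any 1 of the other 5 (log2 fold change -0.54 without EC WT 1), and with the offset for length and GC content (-0.59, adjusted p = 0.0711). Without both EC KO 2 and EC KO 3, which leaves EC KO 1 alone, the log2 fold change was -0.75. In hearts, Egln1 was 436 ± 12.7 CPM in Hmox2+/+ mice and 443 ± 44.1 CPM in Hmox2-/- mice, with a log2 difference of 0.02 ± 0.09 and a 95% interval from -0.16 to 0.20 (adjusted p = 0.894).

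Egln2 (chromosome 7, 26853588 to 26866408, minus strand) encodes PHD1, another prolyl hydroxylase. In ECs it was 43.4, 45.6 and 42.0 CPM in Hmox2+/+ mice and 36.4, 32.3 and 30.6 CPM in Hmox2-/- mice. The groups did not overlap, and the log2 difference of -0.36 ± 0.11 stayed just short of the threshold (adjusted p = 0.055). It passed with DESeq2 (-0.37, adjusted p = 0.019) and with all 13 libraries in 1 fit (-0.40, adjusted p = 0.0137). In hearts it was 44.1 ± 1.25 and 48.1 ± 5.99 CPM (log2 difference 0.13 ± 0.11, adjusted p = 0.39). Cyp2t4 overlaps Egln2 on the opposite strand.

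Egln3 (chromosome 12, 54225767 to 54250673, minus strand) encodes PHD3, a prolyl hydroxylase that HIFs induce. In hearts it was 80.5, 73.3, 70.2 and 59.2 CPM in Hmox2+/+ mice and 100.5, 94.5 and 96.6 CPM in Hmox2-/- mice. Every Hmox2-/- heart was above every Hmox2+/+ heart. The log2 fold change was 0.46 ± 0.11 (adjusted p = 0.00866), or 1.38-fold higher, and the exact permutation p was again the smallest possible, 0.0286. The call held without each heart library in turn and with the offset for length and GC content, and was lost with all 13 libraries in 1 fit (0.46, adjusted p = 0.189), where the EC libraries set part of the spread. In ECs, Egln3 was 5.11, 11.5 and 4.68 CPM in Hmox2+/+ mice and 6.14, 3.78 and 6.57 CPM in Hmox2-/- mice. EC WT 2 stood above the rest. It was also the EC library with the most cardiomyocyte marker counts, at 359.7 CPM against 65461 to 76040 CPM in hearts. The part of such cells in its Egln3 level was not tested. The log2 difference of -0.33 ± 0.38 did not pass (adjusted p = 0.569) and turned positive, 0.20, without EC WT 2.

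Hif1an (chromosome 19, 44551286 to 44568723, plus strand) was the one gene of the 9 that passed in both tissues. In hearts it was 127, 124, 119 and 110.5 CPM in Hmox2+/+ mice and 75.0, 87.5 and 104 CPM in Hmox2-/- mice. The groups did not overlap, and heart KO 3 came closest to the Hmox2+/+ hearts. The log2 fold change was -0.44 ± 0.11 (adjusted p = 0.013). The call was lost with the offset for length and GC content (-0.17, adjusted p = 0.102) and without heart KO 2 (adjusted p = 0.0551). In ECs it was 38.9, 34.2 and 30.7 CPM in Hmox2+/+ mice and 25.3, 24.0 and 23.3 CPM in Hmox2-/- mice, again without overlap. The EC log2 fold change was -0.48 ± 0.12 (adjusted p = 0.0345). As with Egln1, this call was kept only without EC WT 3 among the EC libraries left out in turn, and it was lost without both EC KO 2 and EC KO 3 (-0.42, adjusted p = 0.405), with the offset (-0.38, adjusted p = 0.097) and with counts from length-scaled TPM (-0.41, adjusted p = 0.0641).

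Vhl (chromosome 6, 113600920 to 113608599, plus strand), the substrate-recognition part of the ubiquitin ligase, was low and did not pass in either tissue. It was 13.1 ± 0.730 and 14.1 ± 1.21 CPM in ECs of Hmox2+/+ and Hmox2-/- mice (log2 difference 0.14 ± 0.12, adjusted p = 0.423). In hearts it was 11.1 ± 0.438 and 13.2 ± 2.04 CPM (0.25 ± 0.14, adjusted p = 0.178), with a 95% interval from -0.02 to 0.52.

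**Figure D3:**
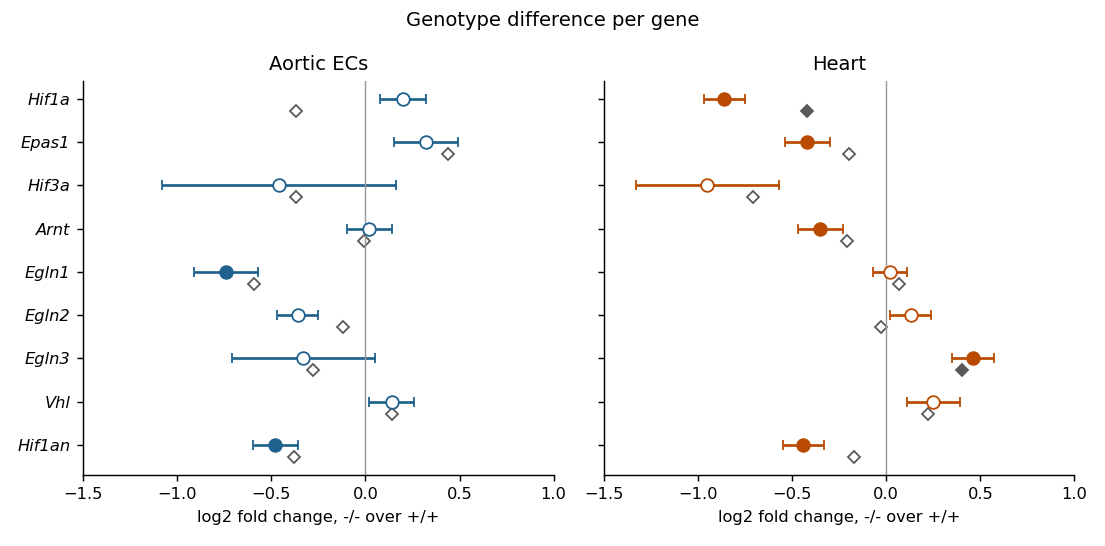
Log2 fold change of each gene, Hmox2-/- over Hmox2+/+, in ECs (left) and hearts (right). Circles are the edgeR values with bars of ± SE, and grey diamonds are the values with the offset for transcript length and GC content. Filled symbols have an adjusted p of at most 0.05. With the offset, Hif1a (-0.42) and Egln3 (0.40) stay filled in hearts, and no diamond is filled in ECs.

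The heart differences ran with transcript length across all genes. The median log2 fold change in hearts was 0.59 for the 981 genes with transcripts of up to 1000 bases and fell steadily to -0.46 for the 1476 genes above 6000 bases. The 4 genes that fell in hearts are long or of middle length (Arnt 3979, Hif1a 4601, Epas1 5516 and Hif1an 6193 bases), and Egln3, which rose, is shorter, at 2662 bases. Hif1an sat at the median of genes of its length, while Hif1a sat well below the median of -0.19 for genes of 4000 to 5000 bases. With the offset, Hif1a was at -0.42 ± 0.11 (adjusted p = 0.0128) and Egln3 at 0.40 ± 0.09 (adjusted p = 0.00915), the 2 of the 9 genes that still passed. Hearts also had a smaller trend with GC content. Their medians were -0.34 for genes of up to 40% GC, -0.16 for 40% to 45% and 0.13 above 60%. In ECs the larger trend was with GC content, in the other direction. The median was 0.67 for genes of up to 40% GC and -0.24 for those above 60%. Hif1a is 40.6%, Egln1 57.1% and Egln2 62.3% GC. What produced these trends was not tested.

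**Figure D4:**
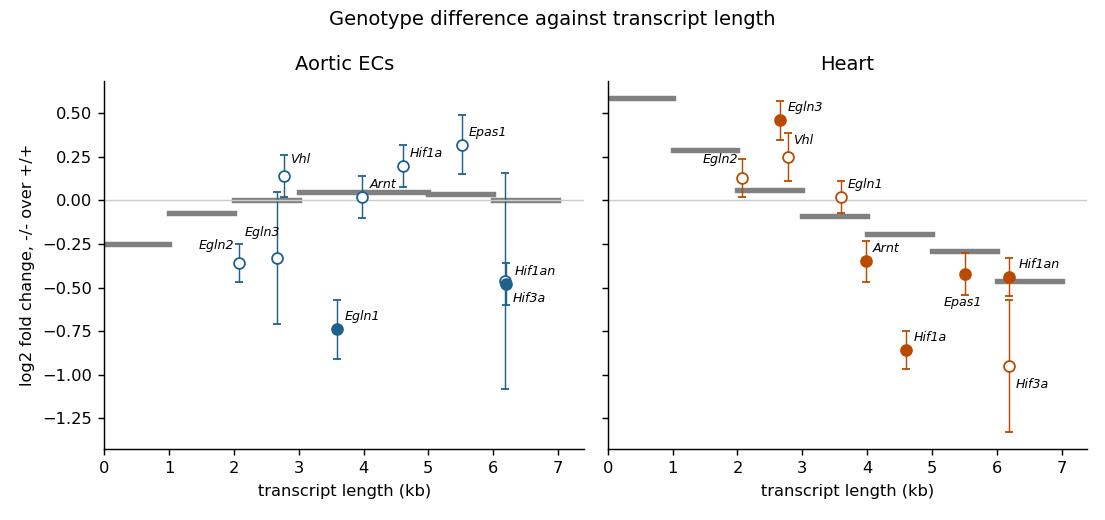
Log2 fold change, Hmox2-/- over Hmox2+/+ (± SE), of the 9 genes against transcript length in kb, in ECs (left) and hearts (right). Grey segments are medians of all genes tested in length bins of 1 kb, the last segment standing for all genes above 6 kb, and filled circles passed. The heart medians step down from 0.59 to -0.46, and Hif1a and Hif3a lie farthest below the segment of their length.

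The scale also mattered in hearts. In TPM (counts corrected for transcript length and for the library's total), which the authors did not normalize between libraries and which include the mitochondrially encoded transcripts, Hif1a was 10.7 to 13.02 after loss of Hmox2 and 13.3 to 23.0 in the controls, still without overlap. Egln3 was 16.4 to 23.5 and 33.4 to 36.5 TPM, also without overlap. Epas1 was 36.3 to 48.5 and 29.6 to 45.2 TPM, Arnt 9.11 to 11.5 and 7.39 to 12.2 TPM, and Hif1an 12.6 to 16.3 and 10.5 to 16.2 TPM, so that these 3 genes overlapped on that scale. Egln2 and Vhl, which had not passed, were higher in Hmox2-/- hearts without overlap in TPM. Egln2 was 15.4 to 18.8 and 21.5 to 24.5 TPM, and Vhl 2.90 to 3.25 and 4.13 to 5.63 TPM. Egln1 and Hif3a overlapped. Leaving out the mitochondrially encoded genes before normalization left 5 of the 9 genes passing in hearts.

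Markers of other cells moved with genotype in ECs. Cardiomyocyte markers were lower in EC KO libraries (9 of 10 passed, all lower), as were Egln1 and Hif1an. Both genes were higher in Hmox2+/+ hearts than in ECs of Hmox2+/+ mice, 6.01-fold and 3.47-fold. In EC WT 1, 2 and 3 the cardiomyocyte markers summed to 96.5, 359.7 and 127 CPM. Egln1 was 90.8, 70.2 and 56.8 CPM there, and Hif1an 38.9, 34.2 and 30.7 CPM. Adipocyte markers summed to 3062 to 4991 CPM in ECs of Hmox2+/+ mice and 3117 to 3802 CPM in ECs of Hmox2-/- mice. Of these markers 1 of 6 passed, lower (Lep, -3.77). Skeletal muscle markers went from 7.16 to 36.6 CPM in ECs of Hmox2+/+ mice to 0.676 to 1.19 CPM in ECs of Hmox2-/- mice. The summed EC markers went from 2512 to 3669 CPM up to 4342 to 5276 CPM. Of the 12 EC markers 7 passed, 6 higher and 1 lower (Kdr, -0.58). Cardiomyocyte markers of the EC libraries were at most 359.7 CPM, against 65461 to 76040 CPM in hearts. Fibroblast markers went from 1716 to 2989 CPM up to 3494 to 4270 CPM and macrophage markers from 147 to 178 CPM up to 213 to 283 CPM, neither with overlap. Of the fibroblast markers 3 of 6 passed, all higher (Lum 1.64, Dcn 1.33 and Pdgfra 0.92), and of the macrophage markers 4 of 7, all higher (Cd163 1.44), while 2 of 6 smooth muscle markers passed, both lower (Myh11 -2.12 and Smtn -1.15). In hearts, erythroid markers summed to 154 to 286 CPM in Hmox2+/+ mice and 768 to 1249 CPM in Hmox2-/- mice. The part of these cells in the results was not tested.

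Whether the genotype difference itself differed between tissues was tested as an interaction over all 13 libraries. 4 of the 9 genes passed, where 28.8% of 15938 genes did. The heart difference was lower than the EC difference for Hif1a (-1.02 ± 0.17 on the log2 scale, adjusted p = 0.00105) and Epas1 (-0.70 ± 0.21, adjusted p = 0.0227). It was higher for Egln1 (0.80 ± 0.21, adjusted p = 0.0115) and Egln2 (0.53 ± 0.15, adjusted p = 0.0163). Egln3 (0.83 ± 0.38, adjusted p = 0.115), Arnt (-0.32 ± 0.17, adjusted p = 0.181) and the other genes did not pass, and for Hif1an the difference between tissues was 0.08 ± 0.17 (95% interval -0.26 to 0.42). With the offset for length and GC content the Hif1a value was -0.12 (adjusted p = 0.696) and the Egln2 value 0.08 (adjusted p = 0.656). With Ddx3y as a covariate, where the EC difference rests on EC KO 1 alone, Epas1 was at -0.49, Egln1 at 0.81 and Egln2 at 0.39. The Epas1 call was lost without heart KO 1 (-0.56, adjusted p = 0.0501) and without EC KO 2 (-0.58, adjusted p = 0.065). The Egln2 call was lost without EC KO 3 (0.47, adjusted p = 0.0501) and with length-scaled TPM counts (0.38, adjusted p = 0.0953). Egln3 passed without EC WT 3 (1.06, adjusted p = 0.0366).

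In Hmox2+/+ mice the tissues differed most in the hydroxylases. Compared to ECs, hearts had 9.94-fold higher Egln3 (log2 3.31 ± 0.29, adjusted p = 1.39e-07), 6.01-fold higher Egln1 (2.59 ± 0.16, adjusted p = 2.83e-09) and 3.47-fold higher Hif1an (1.79 ± 0.12, adjusted p = 1.38e-08). Hif1a was 1.84-fold higher in hearts (0.88 ± 0.12, adjusted p = 1.26e-05) and Epas1 1.75-fold lower (-0.81 ± 0.14, adjusted p = 1.47e-04). Hif3a (0.40 ± 0.52), Arnt (0.13 ± 0.12), Egln2 (0.01 ± 0.10) and Vhl (-0.24 ± 0.12) did not pass. Vhl passed with upper-quartile scaling (-0.39, adjusted p = 0.0138) and without heart KO 3 (-0.29, adjusted p = 0.0385), and Egln2 with the offset for length and GC content (0.28, adjusted p = 0.0078). So 5 of the 9 genes passed, in a comparison where 65.8% of all genes did, and 6 of the 9 did not overlap, against 65.0% of all genes. RNA was extracted by a different kit for each tissue, and kit and tissue cannot be told apart.

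TPM corrects for length, so it allows levels of different genes to be set side by side within a library. Among the alpha subunits in ECs of Hmox2+/+ mice, Epas1 (141 ± 15.9 TPM) stood far above Hif1a (17.8 ± 4.13 TPM) and Hif3a (0.534 ± 0.388 TPM), and took 88.6% ± 1.42 of their summed TPM. In Hmox2+/+ hearts Epas1 took 70.2% ± 3.68 and Hif1a 29.4% ± 3.81. In Hmox2-/- hearts the Hif1a share was 23.2% ± 2.94 and the Epas1 share 76.2% ± 2.82, and the Hif1a ranges, 26.0% to 34.4% and 21.0% to 26.6%, overlapped narrowly. Among the prolyl hydroxylases, Egln2 was the most abundant in ECs of Hmox2+/+ mice at 51.2% ± 5.90 of their summed TPM and Egln1 followed at 43.1% ± 6.48, with ranges that overlapped (45.7% to 57.4% and 38.3% to 50.4%). In ECs of Hmox2-/- mice the shares were 57.0% ± 2.62 and 36.5% ± 3.10, without overlap between these 2 genes. In Hmox2+/+ hearts Egln1 led with 70.8% ± 1.46, Egln3 held 15.8% ± 1.75 and Egln2 13.4% ± 0.435. In Hmox2-/- hearts Egln3 held 20.1% ± 1.53 (19.2% to 21.9%), above its range of 13.4% to 17.6% in Hmox2+/+ hearts.

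**Figure D5:**
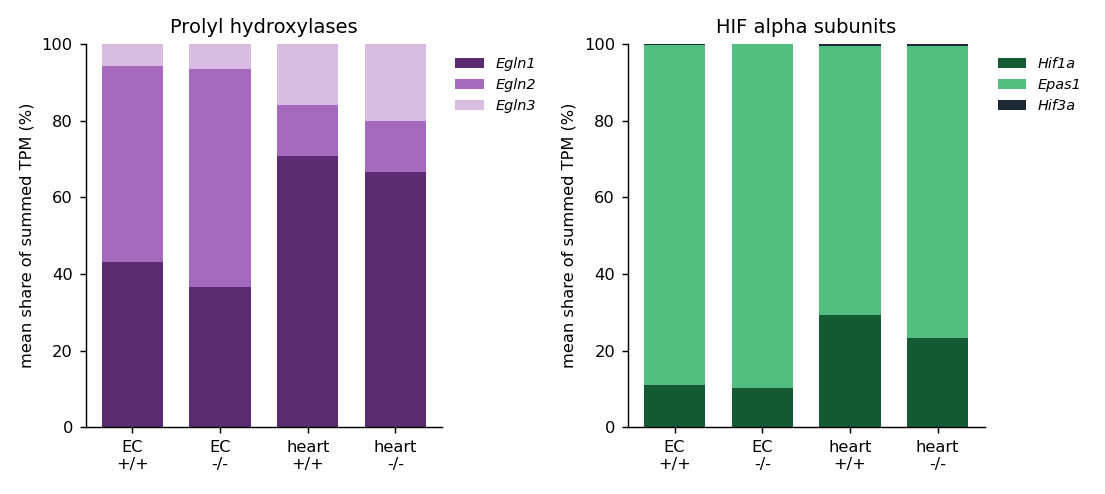
Mean share (%) of summed TPM held by each prolyl hydroxylase (left) and each HIF alpha subunit (right) in the 4 groups (n = 3, 3, 4 and 3 libraries). Egln2 is the largest prolyl hydroxylase share in ECs, Egln1 in hearts, and Epas1 leads the alpha subunits in all 4 groups.

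Around these genes, 25 partners of the pathway were listed: the VHL ligase subunits, coactivators and their inhibitors, chaperones and other regulators. In hearts 14 of 25 passed, 12 higher and 2 lower, with a median log2 fold change of 0.18, where 33.4% of all genes passed. The count was 7 with the offset for length and GC content, 7 without heart KO 2, 8 without heart WT 1, heart WT 3 or heart WT 4 and 9 without heart KO 1. Among the VHL ligase subunits, Elob (0.47 ± 0.12, adjusted p = 0.0114) and Rbx1 (0.35 ± 0.11, adjusted p = 0.036) rose, while Eloc (0.15) and the scaffold Cul2 (0.05) did not pass. Hspa8, a constitutive chaperone, rose most, from 744 ± 79.8 to 2176 ± 56.3 CPM (1.55 ± 0.10, adjusted p = 2.75e-06). Rack1 (0.84), which promotes oxygen-independent turnover of HIF-1 alpha, the coactivator inhibitor Cited4 (0.66), the ubiquitin-like modifier Nedd8 that activates cullins (0.57) and Fkbp8 (0.56), which anchors EGLN1 to membranes, rose too. The coactivator Crebbp (-0.54 ± 0.14, adjusted p = 0.0128) and the membrane prolyl hydroxylase P4htm (-0.47 ± 0.12, adjusted p = 0.0122) fell, and the other coactivator, Ep300, was at -0.52 ± 0.20 without passing (adjusted p = 0.062), and Cited2 at 0.18 (adjusted p = 0.457) did not pass. With the offset for length and GC content the calls of Crebbp (-0.06, adjusted p = 0.603), Nedd8 (0.06, adjusted p = 0.592), Rbx1 (0.12, adjusted p = 0.309) and Cited4 (0.30, adjusted p = 0.169) were lost, while Hspa8 (1.41), Rack1 (0.53), Fkbp8 (0.31) and P4htm (-0.67) still passed. Crebbp lies 512 kb from Hmox2 on chromosome 16, and the part of that closeness in its value was not tested. In ECs 3 of 25 passed, where 18.1% of all genes did, and 1 without EC WT 1 or EC WT 2. Without EC KO 2 or EC KO 3 edgeR passed 0, with 6 at an unadjusted p under 0.05, and DESeq2 on all 6 libraries passed 5. Hspa8 (0.90 ± 0.18) and Siah1a (0.48 ± 0.13), a ubiquitin ligase of EGLN enzymes, rose, and Ube2m (-0.69 ± 0.14), the enzyme that passes NEDD8 to cullins, fell. These calls were not firm. With the offset Siah1a was at 0.06 (adjusted p = 0.749) and Ube2m at -0.39 (adjusted p = 0.0974), Siah1a was also lost without any 1 EC library, and length-scaled TPM counts put Hspa8 at 0.25 (adjusted p = 0.358). Elob (-0.21), Eloc (0.08), Cul2 (-0.02), Rbx1 (0.06), Ep300 (-0.18) and Cited2 (-0.26) did not pass in ECs. With the offset for length and GC content, Elob and Eloc in ECs stood at 0.49 (adjusted p = 0.0471) and -0.66 (adjusted p = 0.0133), the reverse of their signs without it, and Elob in hearts at -0.20 (adjusted p = 0.0782).

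Of 49 genes listed as HIF targets, 48 were tested in ECs and 45 in hearts. In hearts 18 of 45 passed, against 33.4% of all genes, 12 higher and 6 lower, with a median of 0.15. Hmox1, the inducible heme oxygenase, rose most, from 4.85 ± 1.11 to 20.2 ± 10.3 CPM (1.998 ± 0.29, adjusted p = 8.95e-04). The list's glycolytic enzyme Pgam1 (0.79 ± 0.10), the vasodilator peptide Adm (0.76 ± 0.22), the stress gene Ddit4 (0.69 ± 0.16), the mitophagy receptor Bnip3 (0.52 ± 0.13), Pgk1 (0.35 ± 0.09), Ankrd37 (0.90 ± 0.27) and Fam162a (0.81 ± 0.14) also rose. The lipoprotein receptor Vldlr fell from 576 ± 66.9 to 333 ± 64.4 CPM (-0.80 ± 0.14, adjusted p = 0.00235), and so did the collagen lysyl hydroxylase Plod2 (-0.74), the repressor Bhlhe40 (-0.47), hexokinase Hk2 (-0.40) and Pdk1 (-0.32), which restrains pyruvate dehydrogenase. Vegfa (-0.17, adjusted p = 0.266), the glucose transporter Slc2a1 (0.28, adjusted p = 0.218) and Ldha (0.24, adjusted p = 0.108) did not pass in hearts. With the offset for length and GC content 16 targets passed in hearts, not all of them those named above. The calls were lost for Pdk1 (-0.06, adjusted p = 0.574), Hk2 (-0.18, adjusted p = 0.224), Ankrd37 (0.43, adjusted p = 0.185), Pgk1 (0.16, adjusted p = 0.171), Adm (0.47, adjusted p = 0.13) and Ddit4 (0.46, adjusted p = 0.0587). Hmox1 (1.71), Pgam1 (0.55), Bnip3 (0.36), Fam162a (0.30), Vldlr (-0.37), Plod2 (-0.55) and Bhlhe40 (-0.48) still passed. With all 13 libraries in 1 fit, 7 of the targets passed in hearts.

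In ECs 15 of the 48 targets passed, against 18.1% of all genes, 7 higher and 8 lower, with a median of -0.31. Slc2a1 (0.75 ± 0.20), the angiopoietin receptor Tek (0.74 ± 0.16), the collagen enzymes P4ha2 (0.67 ± 0.14), P4ha1 (0.64 ± 0.16) and Lox (0.64 ± 0.18), and Bnip3l (0.54 ± 0.11) rose. In the same libraries the summed fibroblast markers were higher. Of the 12 EC markers, which include Tek itself, 6 passed as higher and 1 as lower. The part of these cells was not tested. Aldoc (-1.77 ± 0.40), Hk2 (-1.40 ± 0.26), the lung-type oxidase subunit Cox4i2 (-1.39 ± 0.27), glycogen synthase Gys1 (-1.15 ± 0.24), Vldlr (-1.14 ± 0.17) and the mitochondrial protease Lonp1 (-0.75 ± 0.17) fell. Aldoc was very low, at 0.929 ± 0.213 and 0.262 ± 0.0546 CPM, and Cox4i2 was low, at 2.75 ± 0.370 and 1.02 ± 0.134 CPM. The Aldoc call was lost without any 1 of 5 EC libraries and with all 13 libraries in 1 fit (-1.81, adjusted p = 0.0877). Vegfa went from 120.0 ± 54.0 to 74.4 ± 10.1 CPM without passing (-0.65, adjusted p = 0.16), and Pgk1 (-0.32), Ldha (-0.54), Bnip3 (-0.15), Adm (0.05), Ankrd37 (0.87) and Hmox1 (1.24, adjusted p = 0.145) did not pass. Hk2 fell from 148 ± 29.8 to 54.3 ± 16.5 CPM in ECs. With the offset 12 of the EC targets passed, and the calls of Bnip3l (0.18, adjusted p = 0.301), Lox (0.45, adjusted p = 0.112), Cox4i2 (-0.91, adjusted p = 0.0596) and Lonp1 (-0.60, adjusted p = 0.0515) were lost. Length-scaled TPM counts turned Bnip3l to -0.14 (adjusted p = 0.484). The EC counts rested on few libraries. Leaving out 1 library at a time gave 3 targets passing without EC WT 1, EC KO 2 or EC KO 3, 6 without EC WT 2, 8 without EC KO 1 and 18 without EC WT 3. Without both EC KO 2 and EC KO 3, with the lone EC KO 1 assumed to vary like the Hmox2+/+ libraries, edgeR passed 0 targets, with 17 at an unadjusted p under 0.05. DESeq2 on all 6 libraries passed 22. Several genes named from both lists share sequence with other genes, from 23.7% of the 31-base words of Bnip3l to 69.3% of those of Ankrd37 (also Bnip3, Fam162a, Hspa8, Pgam1, Pgk1 and Siah1a), so that their counts are uncertain. The 9 genes of the main group share at most 0.88%.

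The genes whose levels ran most like those of 8 of the 9 were found among 13006 protein-coding genes tested in both tissues, as Pearson's r over the 13 libraries after centring log2 CPM within each tissue. Hif1an ran most like Myo10 (r = 0.987) and Fbxl20 (0.973), Egln2 like Hebp1 (0.98) and Ccdc124 (0.965), Egln1 like Stradb and Prob1 (both 0.968), and Vhl like Snapc5 (0.968) and Mlx (0.941). Arnt ran most like Rabep1 and Cds2 (both 0.96), Hif1a like Gpr162 (0.959) and Pwwp3a (0.946), and Epas1 like Zfp780b and Tle4 (both 0.946). Hif3a reached 0.928 with Rbm20 and D630045J12Rik. The libraries fall into genotype groups, which all these genes share, and the values are given as descriptions.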

How the data were processed

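RNA sequencing was done by the authors on oligo-dT-selected RNA, as paired reads pseudoaligned with Kallisto 0.44.0 (the version in the submitters' processing notes). The methods name GENCODE M32 on GRCm39 as the index, while the notes list mm10 and GRCh38.p13 without a role. The deposited estimated counts and TPM values are per transcript and per library, not normalized between libraries, and the run did not use strand. Of 118489 transcripts, 97.2% were matched by stable identifier to GENCODE M39; the rest (0.755% to 1.01% of counts) were left out. Cdip1 and others hold 73.4% of the 31-base words of Hmox2.

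Estimated counts and TPM were summed per gene, and counts were rounded. Genes kept by filterByExpr (minimum count 10) were scaled by TMM and tested with edgeR's quasi-likelihood test (edgeR 4.0.16, R 4.3.3) within each tissue, and over all 13 libraries for the interaction and for the comparison of tissues. Levels are CPM with TMM over all 13 libraries. Genes passed when the p adjusted by Benjamini-Hochberg, over every gene tested, did not exceed 0.05. The authors' further criterion of a doubled level is given where used, as an absolute log2 fold change of 1. Intervals of 95% are normal intervals from the SE. Single genes were also tested by exact permutation over libraries.

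The 9 genes and the lists of partners and targets were chosen with earlier results of these data known. From the lists, the text names up to 6 passing genes per tissue and direction with the largest change, and 14 fixed genes; some genes that this rule or the search for like patterns would name are not reported here. Fits were checked on simulated counts. Alternatives were DESeq2 1.42.0, upper-quartile scaling, no filter, counts from length-scaled TPM, leaving out mitochondrially encoded genes, an offset for transcript length and GC content, 1 fit of all libraries, Ddx3y as a covariate, the replicate number as a block and leaving out each library.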

Additional observations from a re-analysis of the deposited data

Results flagged for a closer look

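The genotype difference differed between hearts and ECs, by the interaction test, for 4 of the 9 genes, 12 of the 25 partners and 13 of the 48 targets tested, where 28.8% of all genes did. The 4 genes of the 9 are given here as values. So are the 17 partners and targets among them that the text names, which were picked for a large change in 1 tissue. Values are the heart log2 fold change minus the EC log2 fold change. They were -1.02 for Hif1a, -0.70 for Epas1, 0.80 for Egln1 and 0.53 for Egln2. Among the targets they were 1.74 for Cox4i2, 1.41 for Gys1, 1.32 for Pgam1, 1.31 for Fam162a, 1.05 for Hk2, 0.93 for Lonp1, -0.48 for P4ha2, -0.62 for Tek and -1.39 for Plod2. Among the partners they were 1.12 for Ube2m, 0.92 for Nedd8, 0.81 for Fkbp8, 0.72 for Elob, 0.70 for Rack1, 0.69 for Hspa8, -0.67 for Siah1a and -0.71 for P4htm. For Hif1a and Egln2 the difference was lost with the offset for length and GC content, as given above. In the 4 Hmox2+/+ hearts, 39 genes were examined for a library far from the other 3, and 0 stood out. With 4 values such a check can find little, so it does not show that no library was unusual. The groups of 3 libraries were not examined in this way.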

How the results depend on the processing

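Counts of the 9 genes that passed are given first. The share of all genes that passed was counted only for the fits reported. Whether genes at large lost or gained calls to the same degree under the alternatives was not examined. In ECs, 2 passed in the fit reported, 1 with length-scaled TPM counts, 3 with DESeq2, and 0 to 2 when 1 library was left out. With the offset for length and GC content 0 passed (4 at an unadjusted p under 0.05). The Ddx3y covariate sets EC KO 2 and EC KO 3 apart. It leaves EC KO 1 alone against the Hmox2+/+ libraries, as does leaving out both. The values were nearly the same, -0.76 and -0.75 for Egln1 and -0.42 and -0.42 for Hif1an. With 1 library in a group, counts that passed are not set beside the others. In hearts, 5 passed in the fit reported, 2 with the offset, 3 with all 13 libraries in 1 fit, and 3 to 5 when 1 library was left out. A required absolute log2 fold change of 1 left 0 in either tissue. In the interaction 4 passed, 2 with the offset, and 3 to 5 when 1 library was left out. Between tissues 5 to 6 passed when 1 library was left out. Of the HIF targets in ECs 15 passed, 24 with all 13 libraries in 1 fit and 22 with DESeq2. The count was 5 with the required fold, and 3 to 18 when 1 library was left out. In hearts 18 passed, 7 with all 13 libraries in 1 fit, 2 with the required fold, and 12 to 21 when 1 library was left out. Of the partners in ECs 3 passed, 5 with DESeq2 and 5 with the offset. The count was 0 with the required fold, and 0 to 4 when 1 library was left out. In hearts 14 passed, 7 with the offset, 1 with the required fold, and 7 to 15 when 1 library was left out. The cause of these differences was not tested, beyond the smaller number of libraries where some were left out.

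With the replicate number as a block, 2 of the 9 genes passed in ECs, 4 in hearts (Arnt was lost at -0.32, adjusted p = 0.0864) and 4 in the interaction, and 8 of the partners passed in hearts in place of 14. Within a tissue, deviations of same-numbered Hmox2+/+ and Hmox2-/- libraries from their group means correlated weakly. The values were 0.18, 0.04 and 0.09 in ECs and -0.03, 0.08 and 0.04 in hearts, and the fits reported did not pair libraries by number. These values cannot show whether an EC library and a heart came from 1 mouse, which was not examined.

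Signs turned only for values that had not passed, except Bnip3l in ECs and Elob in hearts. In ECs, Hif1a stood at -0.37 with the offset and at -0.01 with the Ddx3y covariate and without EC KO 2 and EC KO 3. Arnt stood at -0.01 with the offset, -0.02 with all 13 libraries in 1 fit, -0.11 with the covariate and -0.10 without these 2 libraries. Length-scaled TPM counts gave -0.14 for Bnip3l, -0.36 for Eloc, 0.13 for Cul2 and -0.14 for Rbx1. The covariate gave 0.12 for Bnip3, 0.00 for Cul2 and 0.20 for Cited2, and leaving out both libraries gave 0.12, 0.01 and 0.21. Cul2 was at 0.05 with upper-quartile scaling, and the offset gave 0.49 for Elob and -0.66 for Eloc. In hearts the offset gave -0.03 for Egln2, -0.20 for Elob and -0.04 for Ldha. In the interaction, Hif3a was at 0.76 with length-scaled TPM counts and 0.31 with the covariate, and Hif1an at -0.02 with upper-quartile scaling and with length-scaled TPM counts. Between tissues, Arnt was at -0.01 with upper-quartile scaling, and Egln2 at -0.03 with DESeq2, -0.13 with upper-quartile scaling, -0.01 with length-scaled TPM counts and -0.03 without mitochondrially encoded genes. When 1 library was left out, the EC values that crossed 0 ranged from -0.20 to 0.30 for Adm, -0.06 to 0.08 for Arnt, -0.30 to 0.05 for Bnip3, -0.10 to 0.01 for Cul2, -0.56 to 0.20 for Egln3, -0.32 to 0.02 for Ep300 and -0.02 to 0.17 for Rbx1, the heart values from -0.03 to 0.09 for Egln1 and -0.02 to 0.11 for Cul2, the interaction from -0.87 to 0.51 for Hif3a and -0.03 to 0.20 for Hif1an, and the tissue value from -0.04 to 0.05 for Egln2. The interaction with the offset and with the Ddx3y covariate, the tissue comparison with the offset, and leaving out both EC libraries were chosen after seeing the data. The Ddx3y covariate was not run in hearts, which were all of 1 class. Of the 9 genes, Hif3a had the fewest counts and the widest errors within each tissue.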
